A study of Homo sapiens with 32 samples.

Results

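The genes described here are 10 genes tied to NF-kappaB, a family of transcription factors, and to the cytokines LIF and IL-11: the feedback genes *NFKBIA*, *NFKBIZ*, *TNFAIP3*, and *BCL3*, the chemokine genes *CXCL1*, *CXCL2*, *CXCL3*, and *CXCL8* (also called *IL8*), and the cytokine genes *LIF* and *IL11*. They were found by gene symbol in the deposited tables, and 10 of 10 were present among 25498 genes. The cells were LNCaP, a prostate cancer line derived from a lymph node metastasis that expresses the androgen receptor. RNA with poly(A) tails was sequenced from 8 groups of 4 libraries. The FBS group stayed in medium with fetal bovine serum. The CSS group was moved for a day into medium with charcoal/dextran-treated serum, which holds little androgen, and received no ligand. The other 6 groups were moved in the same way and then received 100 ng/mL EGF or 100 ng/mL NRG-1 for 5 minutes, 1 hour, or 4 hours. EGF binds EGFR and NRG-1 binds HER3 and HER4, and each of these receptors can pair with HER2. Results apply to 1 cell line, and the labels name no vehicle and no collection time for the CSS group. Whether ligand groups spent longer in treated serum than the CSS group is thus not given. Replicates 1 and 2 of each group belonged to batch 1 and replicates 3 and 4 to batch 2. The labels call them biological replicates and say no more about separate cultures, so *P* values measure the spread between these libraries.

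In resting cells, NF-kappaB dimers are held in the cytoplasm by inhibitor proteins, of which IkappaB-alpha, encoded by *NFKBIA*, is the best known. When a kinase complex marks the inhibitor for destruction, the dimers enter the nucleus and switch on genes that include *NFKBIA* itself and *TNFAIP3*, which encodes the deubiquitinase A20. Both proteins then dampen the pathway, which is why they are called feedback genes. *NFKBIZ* and *BCL3* encode atypical, nuclear IkappaB proteins that bind NF-kappaB dimers on DNA and can raise or lower transcription. The chemokines CXCL1, CXCL2, CXCL3, and IL-8 draw neutrophils through the receptors CXCR1 and CXCR2. LIF and IL-11 signal through receptors that share the chain gp130.

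Promoter sequences are shown for the 2 canonical feedback genes and for 2 chemokine genes, of which 1 was measured above the floor and 1 was not, since each holds a kappaB motif close to its start. They are the 250 bases before the transcription start, 5′ to 3′ on the gene's strand, from RefSeq on GRCh38.p14. The reads were aligned to hg19, so the expression values were joined by symbol and not by position. Capitals mark a match to the NF-kappaB consensus or to GGAATTTCC on either strand. The windows are chr14:35404750-35404999 (minus strand) for *NFKBIA*, chr6:137867009-137867258 (plus strand) for *TNFAIP3*, chr4:73740319-73740568 (plus strand) for *CXCL8*, and chr4:73869143-73869392 (plus strand) for *CXCL1*.
NFKBIA promoter: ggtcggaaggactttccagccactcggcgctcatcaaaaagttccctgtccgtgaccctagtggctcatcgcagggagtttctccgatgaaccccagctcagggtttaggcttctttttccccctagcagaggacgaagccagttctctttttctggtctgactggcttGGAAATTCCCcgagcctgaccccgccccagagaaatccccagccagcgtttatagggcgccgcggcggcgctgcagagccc
TNFAIP3 promoter: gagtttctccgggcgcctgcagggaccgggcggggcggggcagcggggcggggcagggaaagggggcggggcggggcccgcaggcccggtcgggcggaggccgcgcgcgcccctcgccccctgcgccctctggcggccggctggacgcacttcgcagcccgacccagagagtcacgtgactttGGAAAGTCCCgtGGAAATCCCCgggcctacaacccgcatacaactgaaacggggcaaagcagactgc
CXCL8 promoter: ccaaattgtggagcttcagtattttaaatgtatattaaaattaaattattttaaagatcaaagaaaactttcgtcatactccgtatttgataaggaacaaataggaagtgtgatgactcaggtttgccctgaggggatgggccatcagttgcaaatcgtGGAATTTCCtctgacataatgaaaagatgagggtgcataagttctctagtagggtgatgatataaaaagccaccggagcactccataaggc
CXCL1 promoter: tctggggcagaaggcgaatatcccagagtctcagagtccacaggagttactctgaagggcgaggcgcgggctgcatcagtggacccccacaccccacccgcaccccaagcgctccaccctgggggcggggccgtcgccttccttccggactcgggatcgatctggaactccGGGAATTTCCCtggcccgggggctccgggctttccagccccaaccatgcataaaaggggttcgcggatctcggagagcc

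Promoters of 9 of the 10 genes were found in the RefSeq table, and *LIF* was not among them. In windows of 300 bases (250 before the start and 50 after it), 8 of these 9 genes held 1 of the 2 kappaB motifs on either strand, against 6.12% of 35116 RefSeq promoters. These genes are known NF-kappaB targets, so this count is a description of the choice of genes. Alone, the consensus occurred in 5.91% of all promoters and GGAATTTCC in 0.461%, and the 2 motifs can overlap. The match began 81 bases before the start in *NFKBIA*, 67 and 55 bases before it in *TNFAIP3*, 91 bases before it in *CXCL8*, and 79 bases before it in *CXCL1*. *IL11* had no match to either kappaB motif. The AP-1 motif TGANTCA, present in 7.71% of all promoters, lay 137 bases before the *CXCL8* start and 96 bases before the *IL11* start. The CArG box (1.29% of all promoters) and the EGR motif GCGTGGGCG (0.795%) were found in 0 of the 9. A match says only that these letters are there.

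Counts per library summed to between 63822654 and 92401724 (median 77866194). The markers of LNCaP cells were present in every library, with 8 of 8 detected and a summed level of 2979 to 5585 TPM (a level per transcript length, scaled to a common total). Of the 7 leukocyte markers, 6 stayed under 1 TPM in all 32 libraries, including *PTPRC* at no more than 0.04 TPM. The exception was *CD68*, at 2.24 to 16.2 TPM. In RNA from bulk cells, fewer cells of a type and less RNA per cell cannot be told apart.

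The 10 genes covered a wide range of levels in CSS. *NFKBIA* was the highest at 46.6 ± 3.68 TPM (SD, n = 4), followed by *BCL3* at 3.72 ± 0.626 TPM. *LIF* stood at 1.45 ± 0.195 TPM, *NFKBIZ* at 1.20 ± 0.234 TPM, *TNFAIP3* at 0.915 ± 0.261 TPM, and *IL11* at 0.528 ± 0.193 TPM. From *LIF* downward each of these neighbours overlapped the next across libraries, whereas *NFKBIA*, *BCL3*, and *LIF* did not overlap each other. *CXCL8* was at 0.0275 ± 0.0050 TPM in CSS, and *CXCL1*, *CXCL2*, and *CXCL3* were at 0 TPM in the 4 CSS libraries.

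Of the 10 genes, 7 passed the filter of at least 5 counts in at least 3 libraries and were tested among 16995 genes. *CXCL8* passed it through the FBS, 1-hour, and 4-hour libraries and replicate 4 of NRG-1 for 5 minutes (7 counts). No CSS library held more than 2 counts. *CXCL1*, *CXCL2*, and *CXCL3* were not tested. Fold changes below are on the log2 scale, from edgeR with a term for the batch, with their SE. Levels of 1 gene between groups are given in CPM (counts scaled to a common library size, after TMM scaling). A gene is said to have risen or fallen where its adjusted *P* was below 0.05, and a DEG also had a log2 fold change beyond 1.

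After 5 minutes, 0 of the 7 tested genes passed with EGF, where 0.00588% of all genes tested did, and 0 of 7 passed with NRG-1, where 0.00% did. Their unadjusted *P* values were under 0.05 in 0 of 7 cases for each ligand. *NFKBIA* was at 35.3 ± 2.80 CPM with EGF and 36.3 ± 2.48 CPM with NRG-1, against 37.6 ± 3.66 CPM in CSS. Its difference from CSS was -0.09 for EGF (95% interval -0.28 to 0.09) and -0.05 for NRG-1 (-0.24 to 0.13).

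By 1 hour *NFKBIA* and *TNFAIP3* were lower and *CXCL8* was higher with both ligands. With EGF, 5 of the 7 tested genes passed, 2 higher and 3 lower, against 9.51% of all genes tested (6.00% higher and 3.51% lower). With NRG-1, 3 of 7 passed, 1 higher and 2 lower, against 6.73% of all genes (4.45% higher and 2.28% lower). *NFKBIA* and *TNFAIP3* fell and *CXCL8* rose with each ligand, whereas *NFKBIZ* (higher) and *BCL3* (lower) passed with EGF and did not pass with NRG-1. Both 1-hour comparisons share the CSS libraries. The genes were chosen with earlier results of these data known, so these counts are a description of the choice. *CXCL8*, counted with each ligand, entered the test through libraries other than CSS.

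*NFKBIA*, the inhibitor gene, was at 34.0, 35.0, 40.9, and 40.7 CPM in the 4 CSS libraries. With EGF for 1 hour it was at 12.4, 12.5, 18.4, and 17.9 CPM, and with NRG-1 for 1 hour at 13.9, 17.3, 21.3, and 20.0 CPM. The CSS libraries overlapped neither 1-hour group, and the batch 2 libraries were the higher ones in each of these groups. The gene fell 2.47-fold with EGF (log2 fold change -1.31 ± 0.09, adjusted *P* = 5.61e-12) and 2.08-fold with NRG-1 (-1.06 ± 0.09, adjusted *P* = 7.67e-10). Both were DEGs, and the fall held in batch 1 alone and in batch 2 alone. Between the ligands the difference was -0.25 (95% interval -0.44 to -0.06) and did not pass (adjusted *P* = 0.386).

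At 4 hours *NFKBIA* was nearly back at its level in CSS, with 31.4, 32.4, 31.2, and 30.4 CPM after EGF and 32.0, 33.2, 35.2, and 32.7 CPM after NRG-1. Compared with 1 hour it rose by 1.05 ± 0.09 with EGF (adjusted *P* = 1.73e-10) and by 0.89 ± 0.09 with NRG-1 (adjusted *P* = 5.95e-09), with no overlap between the times. Against CSS it was still lower with EGF, at -0.26 ± 0.09 (adjusted *P* = 0.0204), but this call rested on batch 2 (-0.38, adjusted *P* = 0.00507) and was absent in batch 1 alone (-0.12, adjusted *P* = 0.233) and without EGF replicate 3 or replicate 4. With NRG-1 the difference from CSS was -0.17 ± 0.09 (adjusted *P* = 0.129). In FBS the level was 51.4, 47.2, 47.2, and 44.9 CPM, above each CSS library. The rise in FBS was 0.35 ± 0.09 (adjusted *P* = 0.00177), although batch 2 alone gave 0.18 (adjusted *P* = 0.110) and limma on log2(TPM + 1) gave 0.14.

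*TNFAIP3*, which encodes A20, traced the same dip. It was at 2.82, 2.96, 2.19, and 1.71 CPM in CSS, at 1.14, 1.18, 0.989, and 1.04 CPM with EGF for 1 hour, and at 1.14, 0.968, 1.12, and 0.975 CPM with NRG-1 for 1 hour. All of the 1-hour libraries lay under the lowest CSS library, and CSS was lower in batch 2. The fall was 2.20-fold with EGF (-1.13 ± 0.15, adjusted *P* = 1.44e-06) and 2.25-fold with NRG-1 (-1.17 ± 0.15, adjusted *P* = 1.26e-06). In batch 2 alone the values were -0.94 (adjusted *P* = 0.0604) and -0.90 (adjusted *P* = 0.110). The ligands differed by 0.04 (95% interval -0.29 to 0.36).

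At 4 hours *TNFAIP3* was at 3.53, 3.01, 2.10, and 1.88 CPM with EGF and at 3.46, 3.20, 2.53, and 1.87 CPM with NRG-1. Replicates 1 and 2 of each ligand lay above the highest CSS library, and replicates 3 and 4 lay within the range of CSS. Against 1 hour it rose by 1.25 ± 0.15 (adjusted *P* = 5.94e-08) and by 1.36 ± 0.15 (adjusted *P* = 1.54e-08), and both were DEGs. The difference from CSS at 4 hours was 0.11 for EGF (95% interval -0.17 to 0.40) and 0.19 for NRG-1 (-0.09 to 0.48). In FBS, where *NFKBIA* was higher than in CSS, *TNFAIP3* was at 1.82 ± 0.437 CPM against 2.42 ± 0.580 CPM. That fall of 0.39 on the log2 scale passed (adjusted *P* = 0.0226), but the libraries overlapped and the call was lost in batch 2 alone (-0.29, adjusted *P* = 0.357) and without FBS replicate 2 or 4 or CSS replicate 2 or 3.

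**Figure D1:**
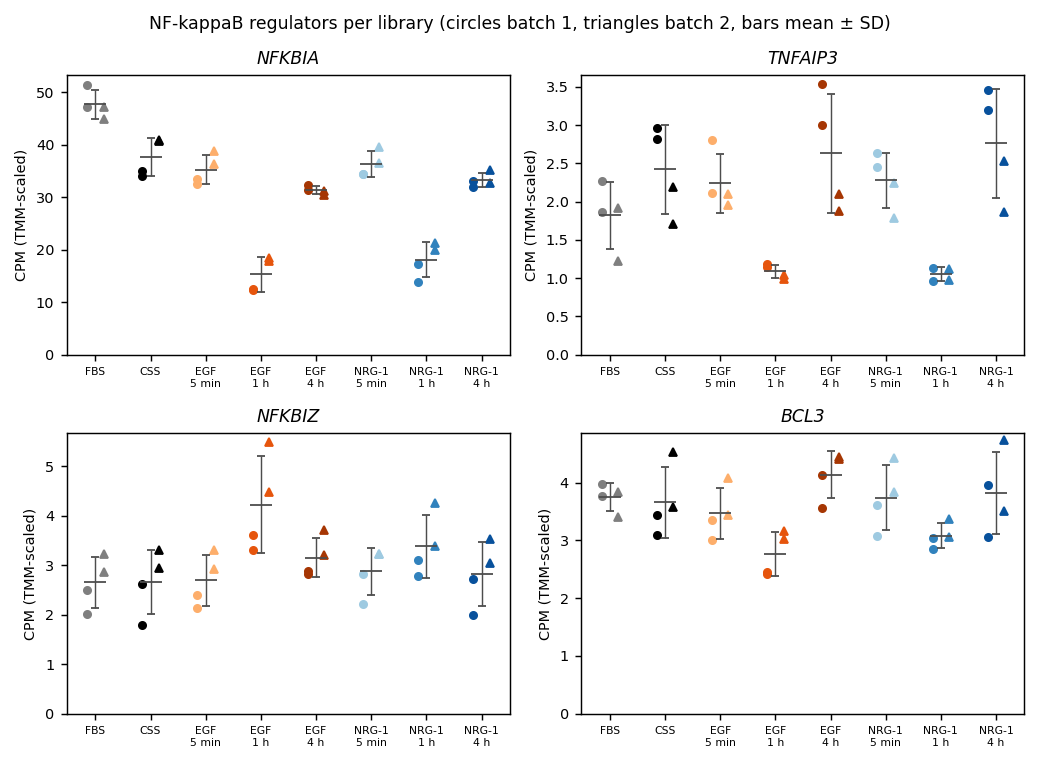
CPM of the 4 NF-kappaB regulator genes in each of the 32 libraries (y axis, from 0) by group (x axis); circles are batch 1, triangles batch 2, and the bars give the mean ± SD of 4 libraries. *NFKBIA* and *TNFAIP3* dip in both 1-hour groups (means of 15.3 and 18.1 CPM and of 1.09 and 1.05 CPM), while *NFKBIZ* has its highest mean, 4.22 CPM, with EGF for 1 hour.

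*NFKBIZ*, the atypical IkappaB gene, moved the other way. Its CSS libraries were at 2.62, 1.79, 2.94, and 3.30 CPM, and those with EGF for 1 hour at 3.31, 3.61, 5.48, and 4.48 CPM. The groups abutted without overlap, and within each batch the EGF libraries were the higher ones. The rise was 1.58-fold (0.66 ± 0.11, adjusted *P* = 8.98e-05), short of the DEG limit, and it passed in each batch alone. With NRG-1 for 1 hour the libraries were at 3.09, 2.77, 3.39, and 4.25 CPM, overlapping CSS. There the change of 0.34 ± 0.11 missed the threshold (adjusted *P* = 0.0685), whereas the fit with the replicate number as a block gave 0.35 with an adjusted *P* of 0.0378 and DESeq2 or the loss of CSS replicate 1 or NRG-1 replicate 3 also brought it under. The difference between the ligands was 0.31 (95% interval 0.09 to 0.54) and did not pass (adjusted *P* = 0.321). By 4 hours *NFKBIZ* was at 3.15 ± 0.404 CPM with EGF and 2.83 ± 0.648 CPM with NRG-1, and neither passed against CSS, although EGF did without CSS replicate 1 or EGF replicate 4. From 1 to 4 hours it fell by 0.40 on the log2 scale with EGF (SE 0.11, adjusted *P* = 0.00396, but 0.204 in batch 1 alone). FBS and CSS had nearly the same mean, at 2.65 ± 0.518 and 2.67 ± 0.646 CPM.

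*BCL3*, another atypical IkappaB gene, stayed under the DEG limit in every comparison. It was at 3.44, 3.09, 4.53, and 3.57 CPM in CSS and at 2.41, 2.45, 3.03, and 3.15 CPM with EGF for 1 hour, with 1 EGF library above the lowest CSS library. The fall of 0.41 on the log2 scale (SE 0.11, adjusted *P* = 0.0106) was lost in 7 of 45 alternatives, among them each batch alone and the fit without CSS replicate 3. With NRG-1 for 1 hour the difference was -0.25 ± 0.11 (adjusted *P* = 0.214). From 1 to 4 hours *BCL3* rose with EGF by 0.59 ± 0.11 (adjusted *P* = 4.49e-05), to 4.13, 3.56, 4.44, and 4.41 CPM, with no overlap between the times. The rise with NRG-1 was 0.31 ± 0.11 (adjusted *P* = 0.0230) and was lost in 10 of 45 alternatives, among them each batch alone and the fits without 4-hour replicate 1 or 3 or 1-hour replicate 4. Its level in FBS, 3.75 ± 0.243 CPM, was close to that in CSS, 3.66 ± 0.613 CPM.

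*CXCL8*, which encodes IL-8, was the chemokine gene with counts above the floor. The CSS libraries held 2, 1, 2, and 2 counts, and those with EGF for 1 hour held 161, 161, 101, and 81. With NRG-1 for 1 hour they held 29, 27, 44, and 75 counts. No library of a 1-hour group came near the CSS libraries, and each EGF library was above each NRG-1 library. The summed counts per unit of library size were 77.6 times those of CSS with EGF (95% counting interval 37.4 to 194) and 24.9 times with NRG-1 (11.8 to 62.7). These intervals are wide because CSS held only 7 counts in all, and they cover counting error only. In the edgeR fit the gene passed with EGF (adjusted *P* = 8.35e-11) and NRG-1 (adjusted *P* = 7.52e-07), and in each batch alone.

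EGF gave more *CXCL8* than NRG-1 at 1 hour. The level was 2.02, 2.27, 1.23, and 1.17 CPM with EGF and 0.384, 0.353, 0.489, and 0.881 CPM with NRG-1, so that the batch 2 libraries were lower with EGF and higher with NRG-1. It was the single tested gene of the 7 that differed between the ligands at 1 hour, where 1.06% of all genes tested did (0.941% higher and 0.118% lower with EGF). The difference was 1.65 ± 0.31 on the log2 scale (95% interval 1.02 to 2.29, adjusted *P* = 0.00207), a DEG. Batch 1 alone gave 2.54 (adjusted *P* = 0.000168) and batch 2 alone gave 0.82 (adjusted *P* = 0.908), and with only the 2 groups in the fit the difference was 1.62 and no longer passed. Whether the batches differed in this was not tested.

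*CXCL8* was mostly down again at 4 hours. It held 10, 12, 14, and 6 counts with EGF and 9, 7, 6, and 6 counts with NRG-1, all above the highest CSS library. Against CSS these were ratios of 6.44 (95% counting interval 2.87 to 17.0) and 4.70 (2.01 to 12.7). Both passed in edgeR (adjusted *P* = 0.00287 and 0.0230), but neither did in batch 2 alone or in limma on log2(TPM + 1), and the call for NRG-1 was lost without NRG-1 replicate 1 or CSS replicate 2. From 1 to 4 hours the gene fell by 3.58 ± 0.37 with EGF (adjusted *P* = 4.44e-09) and by 2.38 ± 0.44 with NRG-1 (adjusted *P* = 5.96e-05), and no library of 1 time overlapped the other. After 5 minutes there were 8 counts over the EGF libraries and 11 over the NRG-1 libraries, for ratios of 1.16 (0.367 to 3.75) and 1.57 (0.557 to 4.79) to CSS. In FBS the libraries held 13, 28, 30, and 14 counts, a ratio of 13.5 to CSS (6.27 to 34.6, adjusted *P* in edgeR 1.32e-05), and this call held in each batch alone.

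The 3 GRO chemokine genes were at the floor throughout. *CXCL1* had 0 counts in 32 of 32 libraries, which allows up to 3 counts in each, or 0.0310 to 0.0504 CPM. *CXCL2* had 1 count in 1 FBS library and 1 library with EGF for 4 hours. *CXCL3* had 1 count in 5 libraries, of which 4 were EGF libraries and 1 was from NRG-1 for 5 minutes. These 3 genes are close paralogs whose reads can be shared, but even their sum did not exceed 2 counts in a library. No fold change is given for them, and a difference between groups was not detectable at this depth. They lie with *CXCL8* in a chemokine cluster on chromosome 4. *CXCR1* and *CXCR2*, the receptors of these chemokines, were near the floor too, at 0.0138 ± 0.0203 and 0.0414 ± 0.0373 CPM in CSS, and neither passed in any comparison with CSS.

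**Figure D2:**
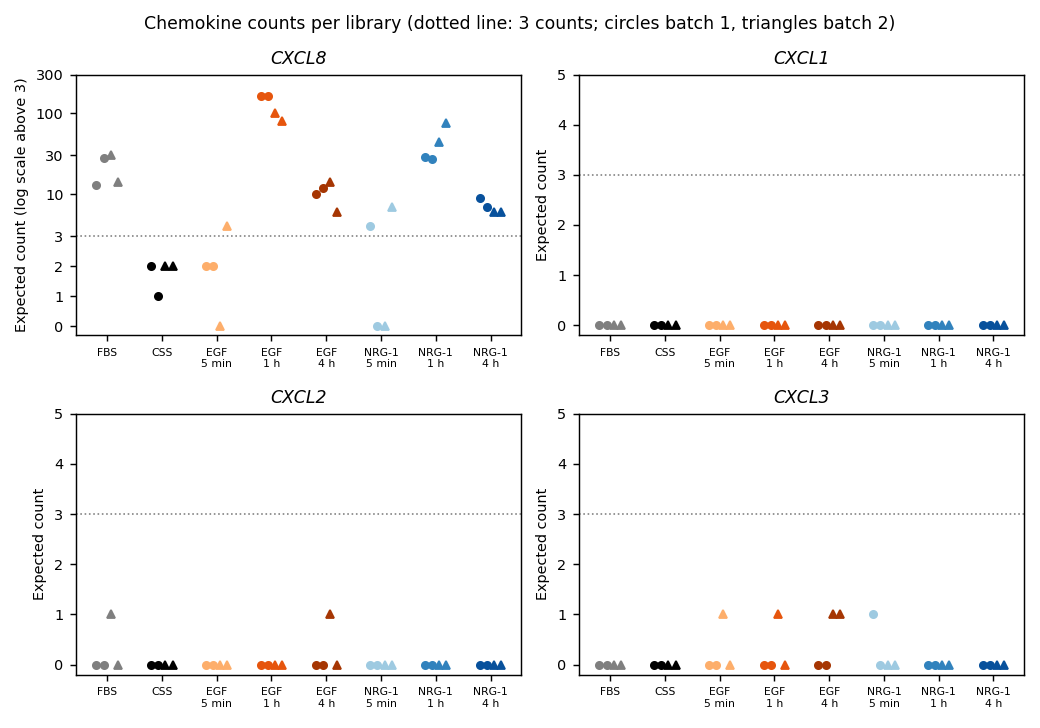
Expected counts of the 4 chemokine genes in each library (y axis; log scale above 3 counts for *CXCL8*, linear for the others) by group; circles are batch 1, triangles batch 2, and the dotted line marks 3 counts. *CXCL8* reaches 81 to 161 counts with EGF and 27 to 75 with NRG-1 at 1 hour, while *CXCL1*, *CXCL2*, and *CXCL3* do not pass 1 count in any library.

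At 4 hours *CXCL8* and *LIF* were higher and *IL11* was lower than in CSS with both ligands. With EGF, 4 of the 7 tested genes passed, 2 higher (*CXCL8* and *LIF*) and 2 lower (*NFKBIA* and *IL11*), against 49.2% of all genes tested (24.6% higher and 24.6% lower). With NRG-1, 3 of 7 passed, 2 higher (*CXCL8* and *LIF*) and 1 lower (*IL11*), against 42.6% of all genes (21.6% higher and 21.0% lower). The share of these genes that passed at 4 hours was thus close to the share of all genes.

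*LIF*, a cytokine of the IL-6 family, was at 2.83, 2.79, 3.77, and 3.55 CPM in CSS. It stayed there at 1 hour, with differences of -0.05 (95% interval -0.33 to 0.22) for EGF and -0.06 (-0.33 to 0.22) for NRG-1. With EGF for 4 hours it was at 4.75, 5.10, 6.01, and 4.47 CPM, each above the highest CSS library. The rise was 1.59-fold (0.67 ± 0.13, adjusted *P* = 0.000103), and batch 2 alone gave 0.54 (adjusted *P* = 0.131). With NRG-1 for 4 hours the libraries were at 4.30, 3.26, 5.53, and 3.89 CPM, overlapping CSS, although each was above the CSS library of the same number. That rise of 0.39 ± 0.13 passed (adjusted *P* = 0.0174) but was lost in 7 of 45 alternatives, among them batch 2 alone (0.38, adjusted *P* = 0.352) and the fit without NRG-1 replicate 1 or 3. Neither rise reached the DEG limit.

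From 1 to 4 hours *LIF* rose by 0.72 ± 0.13 with EGF (adjusted *P* = 5.03e-05, but not in batch 2 alone) and by 0.45 ± 0.13 with NRG-1 (adjusted *P* = 0.00766, lost in 6 of 45 alternatives). At 4 hours the ligands differed by 0.27 (95% interval 0.01 to 0.54), which did not pass (adjusted *P* = 0.427). In FBS the level was 2.84 ± 0.594 CPM, a difference from CSS of -0.19 (95% interval -0.47 to 0.08). Beside these rises, the summed level of the 7 leukocyte markers was 12.4 to 16.4 TPM with EGF for 4 hours and 6.71 to 11.0 TPM with NRG-1 for 4 hours, against 3.33 to 4.14 TPM in CSS. *CD68* carried it, and *PTPRC*, *CD3E*, and *ITGAM*, also on that list, did not exceed 0.04 TPM in any library.

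*IL11*, which encodes the gp130 cytokine IL-11, went down at 4 hours, and it did so in batch 1. CSS libraries were at 0.750, 0.931, 0.409, and 0.607 CPM, and those with EGF for 4 hours at 0.356, 0.353, 0.491, and 0.490 CPM. The groups overlapped, because CSS replicate 3 was at the level of the treated libraries. The fall was 0.64 on the log2 scale with EGF (SE 0.20, adjusted *P* = 0.00989), with -1.24 in batch 1 alone (adjusted *P* = 0.000688) and -0.02 in batch 2 alone (adjusted *P* = 0.970). With NRG-1 the libraries were at 0.454, 0.421, 0.504, and 0.398 CPM. That fall was 0.57 (SE 0.20, adjusted *P* = 0.0240), with -0.93 in batch 1 alone and -0.15 in batch 2 alone (adjusted *P* = 0.785). Both calls were also lost without CSS replicate 2, that for EGF without EGF replicate 1 or 2, and that for NRG-1 without CSS replicate 1 or NRG-1 replicate 1 or 2. NRG-1 gave 0.763 ± 0.227 CPM at 1 hour, from which *IL11* fell by 0.77 ± 0.20 to 4 hours (adjusted *P* = 0.00306, but 0.321 in batch 2 alone). FBS was at 0.859 ± 0.145 CPM, a difference of 0.38 from CSS that did not pass (adjusted *P* = 0.0909).

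**Figure D3:**
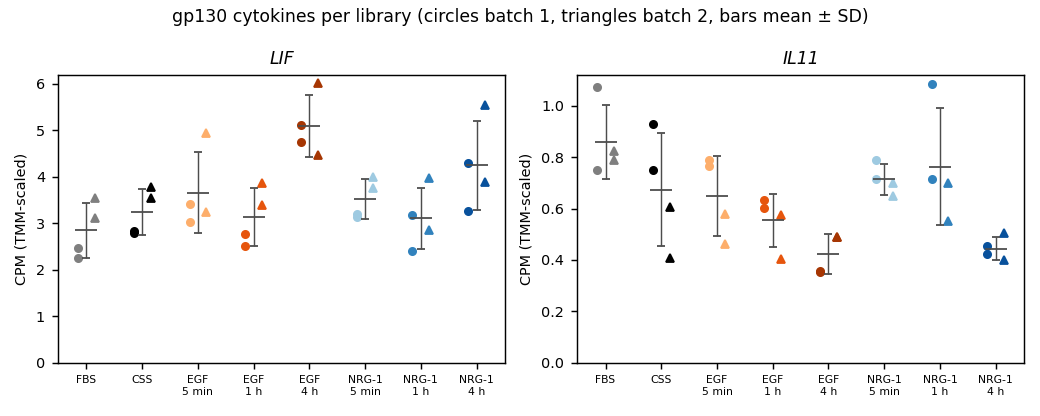
CPM of *LIF* and *IL11* in each library (y axis, from 0) by group; circles are batch 1, triangles batch 2, and the bars give the mean ± SD of 4 libraries. *LIF* has its highest means at 4 hours (5.08 CPM with EGF and 4.24 CPM with NRG-1), and *IL11* its lowest (0.423 and 0.444 CPM), with the CSS libraries of batch 1 above those of batch 2 for *IL11*.

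Between 1 and 4 hours, 6 of the 7 tested genes passed with EGF (4 higher and 2 lower), where 44.0% of all genes tested did (22.5% higher and 21.5% lower), and 6 of 7 passed with NRG-1 (4 higher and 2 lower), where 37.5% did (19.0% higher and 18.5% lower). *NFKBIA*, *TNFAIP3*, *BCL3*, and *LIF* rose and *CXCL8* fell with each ligand, *NFKBIZ* fell with EGF, and *IL11* fell with NRG-1. These counts too are a description, since the genes were chosen with earlier results of these data known. The test of whether this course differed between the ligands passed for 0 of 7 genes, where 0.506% of all genes passed, with 0 of 7 at an unadjusted *P* under 0.05. For *CXCL8* that difference was -1.20 (95% interval -2.51 to 0.10), which passed in limma on log2(TPM + 1) and not in edgeR. EGF and NRG-1 differed in 0 of 7 genes at 5 minutes, where 0.00% of all genes did, and in 0 of 7 at 4 hours, where 1.66% did. At 4 hours 1 of the 7, *LIF*, had an unadjusted *P* under 0.05, and at 5 minutes 0 did.

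The comparison of FBS with CSS covers the whole move to treated serum, apart from the ligands. By the authors' methods that move included washes and new medium, and whether FBS cultures were washed too is not given. Here 3 of the 7 tested genes passed, 2 higher (*NFKBIA* and *CXCL8*) and 1 lower (*TNFAIP3*), against 52.7% of all genes tested (26.0% higher and 26.8% lower). The other 4 genes did not pass. Of the 3 that passed, *CXCL8* was the only DEG.

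**Figure D4:**
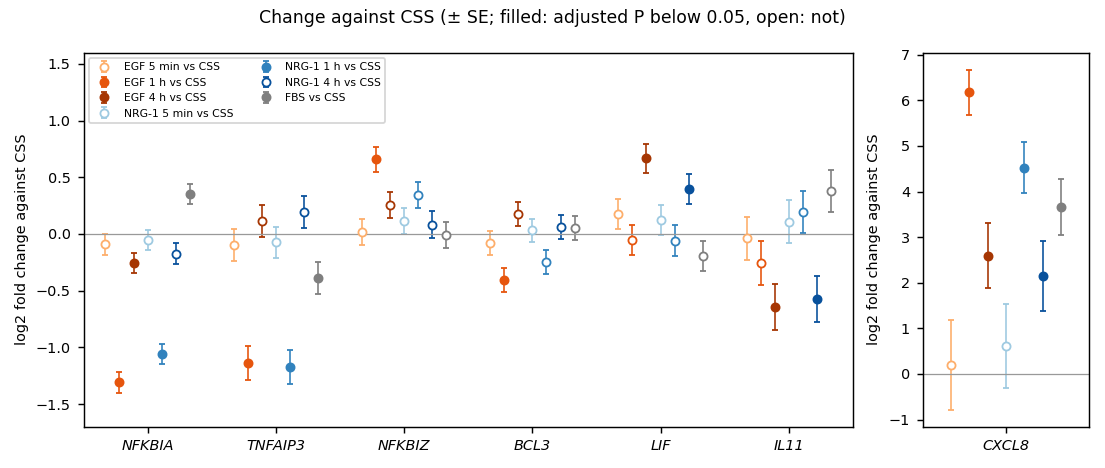
Log2 fold change against CSS (y axis, ± SE) of the 7 tested genes for each ligand, time, and FBS; filled points passed at an adjusted *P* below 0.05 and open points did not, and *CXCL8* has its own y axis. The points for 5 minutes lie near 0 with wide errors for *CXCL8*, those for 1 hour reach -1.31 for *NFKBIA* and 6.18 for *CXCL8*, and those for 4 hours are filled for *CXCL8*, *LIF*, and *IL11* with both ligands.

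Other genes of the NF-kappaB and gp130 pathways were taken from a list of 77, of which 65 were tested. The 12 others, among them *IL6*, *TNF*, *ICAM1*, *PTGS2*, and *CCL20*, did not exceed 6 counts in a library. Against CSS, 10 of 65 passed after EGF for 1 hour, of which 8 were higher and 2 lower. Of all genes tested 9.51% passed there (6.00% higher and 3.51% lower). NRG-1 for 1 hour also gave 10 of 65, of which 6 were higher, beside 6.73% of all genes (4.45% higher). At 4 hours EGF changed 43 of the 65, 27 of them upward, beside 49.2% of all genes (24.6% higher). NRG-1 changed 36, 23 of them upward, beside 42.6% of all genes (21.6% higher). The median log2 fold change of the list was 0.02 and 0.00 at 1 hour and 0.10 and 0.05 at 4 hours, beside -0.01, 0.00, -0.02, and -0.01 for all genes tested. After 5 minutes 0 of 65 passed with either ligand. In FBS 15 were higher and 27 lower, where 52.7% of all genes passed (26.0% higher and 26.8% lower). The median there was -0.06 beside -0.01 for all genes.

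Among the 18 tested kinases and adaptors, *MAP3K14* rose most at 1 hour. It encodes NIK, the kinase that starts the noncanonical branch of the pathway, in which the NFKB2 precursor is processed and pairs with RELB. Its mean was 14.5 CPM in CSS, 91.6 CPM with EGF for 1 hour (2.67 ± 0.10, adjusted *P* = 5.26e-19), and 56.6 CPM with NRG-1 for 1 hour (1.97 ± 0.09, adjusted *P* = 7.66e-16). EGF exceeded NRG-1 by 0.70 at 1 hour (adjusted *P* = 9.17e-06) and by 0.61 at 4 hours (adjusted *P* = 0.000148), and both calls were lost in batch 2 alone. *TRAF5*, an adaptor of TNF-family receptors, had a mean of 1.03 CPM in CSS, 3.83 CPM after 4 hours of EGF, and 3.44 CPM after 4 hours of NRG-1 (1.89 and 1.74, adjusted *P* = 4.22e-13 and 4.77e-12).

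Of the 5 subunit genes, *RELB* changed most at 4 hours. Its mean of 1.20 CPM in CSS became 6.06 CPM with EGF for 4 hours (2.34 ± 0.15, adjusted *P* = 1.83e-13) and 4.69 CPM with NRG-1 for 4 hours (1.97 ± 0.15, adjusted *P* = 1.23e-11). *NFKB2* rose by 0.84 and 0.58 (the latter not in batch 2 alone) and *NFKB1* by 0.28 and 0.26 at 4 hours, though *NFKB1* did not in batch 2 alone or in limma on log2(TPM + 1), nor for NRG-1 without NRG-1 replicate 1 or 3. At 1 hour *RELB* was already higher than in CSS, at 1.84 CPM with EGF and 1.72 CPM with NRG-1 (0.62 and 0.52). The call for EGF was lost in 3 of 45 alternatives, among them batch 1 alone and the fit without EGF replicate 3. That for NRG-1 was lost in 12 of 45, among them each batch alone. *REL* was higher with EGF at 1 hour (0.54 ± 0.09, adjusted *P* = 3.16e-05, but not in batch 2 alone). At 4 hours it was lower than in CSS, at 9.78 CPM with EGF and 9.42 CPM with NRG-1 against 11.5 CPM (-0.23 and -0.28, adjusted *P* = 0.0301 and 0.00994). The call for EGF was lost in 11 of 45 alternatives, among them each batch alone and the fits without EGF replicate 1, 2, or 4 or CSS replicate 2 or 3, and that for NRG-1 in 4 of 45, among them batch 2 alone and the fit without NRG-1 replicate 2. *RELA* was 0.24 higher with each ligand at 1 hour, but not in batch 2 alone or in limma on log2(TPM + 1), nor for NRG-1 with only the 2 groups in the fit. In FBS 4 of the 5 were lower than in CSS, where 26.8% of all genes tested were lower. *NFKB1* was at -0.63, *REL* at -0.53, *RELB* at -0.50, and *RELA* at -0.22. Of these, *RELB* and *RELA* did not pass in batch 2 alone, and *RELB* did not without FBS replicate 2 or 3.

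Among the 12 tested inhibitors and feedback genes outside the 10, *ZC3H12A* was the one that met the DEG limit at 1 hour, with NRG-1 only. It encodes Regnase-1, an RNase that degrades cytokine mRNAs, and it went from 27.4 CPM in CSS to 11.6 CPM with NRG-1 (-1.23 ± 0.10, adjusted *P* = 7.75e-11) and 14.7 CPM with EGF (-0.89 ± 0.10, adjusted *P* = 3.24e-08). Only *NFKBIE*, which encodes IkappaB-epsilon, was higher among these 12 at 1 hour with each ligand, by 0.33 and 0.36, but not in batch 2 alone or in limma on log2(TPM + 1), nor for NRG-1 with only those groups in the fit. With each ligand 2 of the 12 were lower at 1 hour, where 3.51% of all genes were lower with EGF and 2.28% with NRG-1. *BIRC3*, another of the 12, had a mean of 8.88 CPM in CSS, 5.28 CPM with EGF, and 6.09 CPM with NRG-1 at that time.

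Of the receptor genes, *IL6ST*, which encodes gp130, rose from 197 CPM in CSS to 301 CPM with EGF and 319 CPM with NRG-1 at 4 hours (0.60, not in batch 2 alone, and 0.68, adjusted *P* = 2.40e-06 and 3.87e-07), and was lower in FBS at 133 CPM (-0.57). *IL6R*, the IL-6 receptor gene, rose from 49.8 CPM to 117 CPM with EGF (1.25, adjusted *P* = 9.85e-14) and 99.2 CPM with NRG-1. *IL1RAP*, which encodes a coreceptor for IL-1, fell from 20.7 CPM to 7.20 and 7.73 CPM (-1.52 and -1.42). The receptor genes for LIF and IL-11 other than *IL6ST* moved little. *LIFR* was at 36.7 CPM in CSS and passed in 1 of the 7 comparisons with CSS, NRG-1 for 1 hour (-0.29, adjusted *P* = 0.0182, lost in 9 of 45 alternatives, among them the fits without NRG-1 replicate 2 or 4 or CSS replicate 3), and *IL11RA*, at 5.46 CPM in CSS, passed in 0 of 7. In FBS the intracellular target *TNFAIP8*, a regulator of cell death, rose from 11.7 to 32.7 CPM (1.47, adjusted *P* = 1.55e-13).

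**Figure D5:**
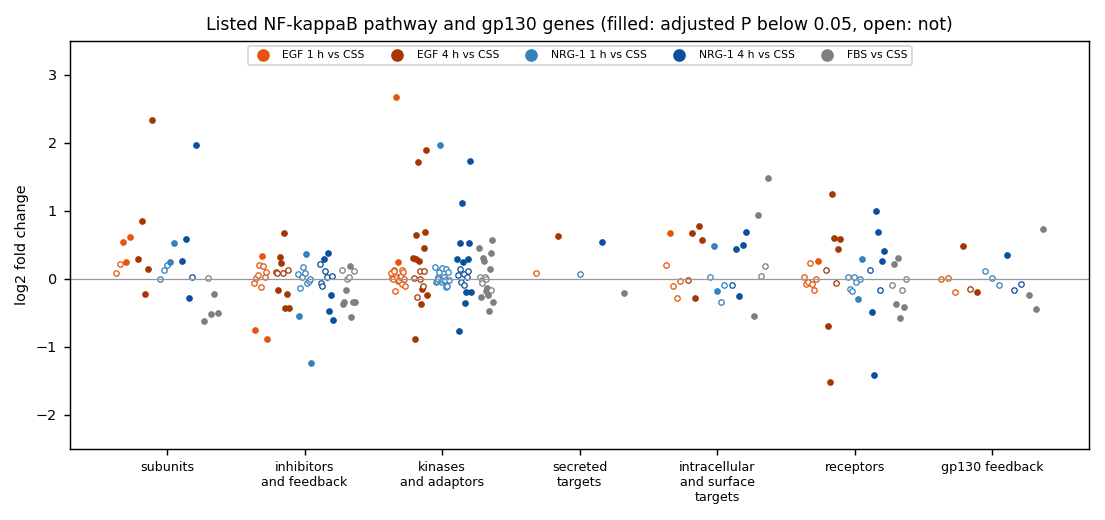
Log2 fold change against CSS (y axis) of 51 listed pathway genes that averaged at least 1 CPM, by role (x axis) and comparison (colour); filled points passed at an adjusted *P* below 0.05 and open points did not. At 1 hour the highest points are those of *MAP3K14* (2.67 and 1.97) and the lowest those of *ZC3H12A* (-0.89 and -1.23), and at 4 hours *RELB* (2.34 and 1.97) is the highest subunit.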

How the data were processed

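Per the submitters' processing notes, reads were handled with Trimmomatic 0.36, STAR 2.7.0f, and RSEM on hg19; the gene annotation is not given in the sources used here. The authors deposited an expected count per gene and library, not normalized, and a TPM value per gene and library, normalized for transcript length and library total. All value columns were used (0 unused).

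Expected counts were rounded (11.2% were not whole). A gene entered the test if 3 or more libraries held 5 or more counts. EdgeR 4.0.16 under R 4.3.3 fitted group and batch to all 32 libraries after TMM scaling, by its quasi-likelihood method, and *P* values were adjusted by Benjamini-Hochberg in each of 13 comparisons. DESeq2 1.42.0, its size factors in edgeR, limma 3.58.1 on log2(TPM + 1) or log2(TPM + 0.1), other filters (none, or 10 counts or more everywhere), omission of the batch, a block for the replicate number, each batch or each pair of groups by itself, the 3 GRO genes summed, and the loss of each library in turn served as alternatives. The scripts were tested on simulated counts.

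The labels give same-numbered libraries a shared batch. Their deviations from the group means correlated at *r* = 0.07 to 0.41, over 0.1 in 108 of 112 same-numbered pairs of libraries. The batch difference was not removed from these deviations. Whether the numbers also pair libraries within a batch was thus not tested. No 2 libraries of a group were alike within sampling noise (chi-square per degree of freedom 6.50 to 262).

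The genes and lists were chosen with earlier results of these data known. The pathway list was compiled from general knowledge. Its named genes were, per role and comparison with CSS (EGF and NRG-1 at 1 and 4 hours, and FBS), the DEG with the largest rise and the DEG with the largest fall, at an average log2 CPM of at least 0, with all subunits and the receptors of the secreted proteins. *NFKBIE*, *BIRC3*, and values of named genes in further comparisons were added after they were seen. Marker lists for leukocytes, fibroblasts (summed 1.91 to 5.80 TPM), and endothelial cells (0.720 to 3.12 TPM) were checked.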

Additional observations from a re-analysis of the deposited data

Results flagged for a closer look

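The difference in *CXCL8* between EGF and NRG-1 at 1 hour was picked out because a test of the difference itself passed, with a log2 fold change of 1.65 and an adjusted *P* of 0.00207 in edgeR. Each EGF library was above each NRG-1 library. In batch 1 alone the difference was 2.54 and in batch 2 alone 0.82. The 7 tested genes in 8 groups gave 56 sets of 4 libraries, in which a library standing apart from the other 3 was looked for by Dixon's criterion. None was found, whereas chance alone would give about 3.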

How the results depend on the processing

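Alternatives were computed for 77 results for single genes. Over these results 3282 comparisons with an alternative kept both direction and call, 163 kept the direction and lost the call, 11 gained it, and 0 changed sign. The changes at 1 hour of *NFKBIA* and *CXCL8* with both ligands and of *NFKBIZ* with EGF held under every alternative that could be run for them. The filter of at least 10 counts in every library removed *CXCL8*.

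Counts of the tested genes that passed changed by over 1.5 times as follows. Batch 2 alone gave 3 genes for EGF at 1 hour (5 in all libraries), 1 for EGF at 4 hours (4), 0 for NRG-1 at 4 hours (3), 1 for FBS (3), 0 between the ligands at 1 hour (1), and 3 for NRG-1 from 1 to 4 hours (6). Batch 1 alone gave 4, 3, 3, 3, 1, and 5 genes in these comparisons, in the same order. Fewer libraries enter the fit of either batch, and what else differs between the batches was not tested. Limma on log2(TPM + 1) gave 1 gene for NRG-1 at 4 hours and 1, *CXCL8*, for the difference in time course. Without a filter on TPM it gave 2 for EGF at 4 hours, 0 for NRG-1 at 4 hours, and 1 for the time course. *CXCL8* lies under 1 TPM in most groups, where this scale compresses its changes. Between the ligands at 1 hour, 0 passed with at least 10 counts in every library or with only the 2 groups in the fit. For the pathway list between the ligands at 4 hours, DESeq2 gave 5 genes and edgeR 2; the cause was not tested.

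When each library was left out in turn, the number passing ranged from 4 to 5 for EGF at 1 hour, 3 to 5 for EGF at 4 hours, 3 to 4 for NRG-1 at 1 hour, 0 to 3 for NRG-1 at 4 hours, 2 to 3 for FBS, and 5 to 7 for NRG-1 from 1 to 4 hours. It was 6 throughout for EGF from 1 to 4 hours, 1 between the ligands at 1 hour, and 0 in the remaining comparisons. The 0 for NRG-1 at 4 hours came without NRG-1 replicate 1, and 1 gene remained in the count without CSS replicate 2.

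With the replicate number as a block, 4 genes passed for NRG-1 at 1 hour in place of 3, the added one being *NFKBIZ*. The block changed no other call among the tested genes. Depth limits the chemokine genes most, since CSS libraries held 1 or 2 *CXCL8* counts and 0 for the other 3.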

Other observations

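The genes whose CPM followed these genes most closely were sought over the 32 libraries with batch means removed, among 12777 genes. Libraries of a group are not independent points, so the values are a description. For *NFKBIA* they were *TFAP4* (*r* = 0.942), *FANCF* (*r* = 0.935), and *SPRY1* (*r* = 0.933). For *CXCL8* they were *RGS2* (*r* = 0.918), *PTGER4* (*r* = 0.901), and *CDKN2AIP* (*r* = 0.896). For *LIF* they were *ARHGAP39* (*r* = 0.925), *SBNO2* (*r* = 0.906), and *JADE2* (*r* = 0.905).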
